A study of Mus musculus with 8 samples.

Results

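Ketone body metabolism was followed in mouse hearts through 5 genes: Bdh1, the D-beta-hydroxybutyrate dehydrogenase of mitochondria, and its partners Oxct1, Acat1, Slc16a1 and Bdh2. They were taken by gene symbol, as every probe set that the platform annotation assigns to one of them alone, which gave 12 probe sets of 45037 and 5 genes of 18193. The set was chosen by the KO minus WT intensities of Bdh1, which were already known to be higher in the knock-out hearts of these arrays. Its knock-out minus wild-type values are therefore a description and carry no test, and the 4 partners were chosen for their place in the pathway, with earlier results of these data known.

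RNA came from hearts of female mice with a conditional knock-out under the MCK (muscle creatine kinase) driver, which acts in heart and skeletal muscle, and of their littermates labelled WT. There were 2 KO mice at 10 weeks of age, 2 WT mice at 10 weeks, 2 KO mice at 4 weeks and 2 WT mice at 4 weeks, with 1 Affymetrix mouse expression array per heart. The labels give no strain and no treatment. The design names the 4 animals of each age as littermates, so an age difference cannot be told apart from a difference between litters or handling days. Precision is limited by having 2 arrays in a group.

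Ketone bodies are small fuels that the liver makes from fatty acids and that heart muscle takes up and burns. Beta-hydroxybutyrate and acetoacetate cross the cell membrane on monocarboxylate transporters such as MCT1, the product of Slc16a1. In mitochondria BDH1 oxidises beta-hydroxybutyrate to acetoacetate, OXCT1 (also called SCOT) attaches coenzyme A from succinyl-CoA, and ACAT1, a thiolase, splits the product into acetyl-CoA for the acid cycle. The OXCT1 step is the one that liver lacks, which is why liver exports ketone bodies and heart consumes them. BDH2 is a cytosolic dehydrogenase that is also known for making a mammalian siderophore, a small iron-binding molecule.

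The promoters of Bdh1 and Slc16a1 are shown because the Bdh1 level differed with age, and the Slc16a1 window held the only match to a motif searched. RefSeq, on build GRCm38.p6, held start sites for 4 of the 5 genes, and Acat1 had no entry. Each sequence is the 250 bases before a start site, on the plus strand. Capitals mark the motif found.
Bdh1, first start site, chr16:31422047-31422296, plus strand: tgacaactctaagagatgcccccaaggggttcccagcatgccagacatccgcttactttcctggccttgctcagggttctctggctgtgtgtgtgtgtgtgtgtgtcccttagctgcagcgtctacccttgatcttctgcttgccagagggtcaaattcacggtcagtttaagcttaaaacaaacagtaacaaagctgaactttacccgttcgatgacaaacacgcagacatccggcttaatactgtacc
Bdh1, second start site, chr16:31428503-31428752, plus strand: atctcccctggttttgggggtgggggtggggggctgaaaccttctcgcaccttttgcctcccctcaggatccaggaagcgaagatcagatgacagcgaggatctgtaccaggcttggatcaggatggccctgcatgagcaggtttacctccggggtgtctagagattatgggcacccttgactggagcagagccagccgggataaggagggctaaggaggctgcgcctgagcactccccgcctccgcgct
Slc16a1, chr3:104638414-104638663, plus strand: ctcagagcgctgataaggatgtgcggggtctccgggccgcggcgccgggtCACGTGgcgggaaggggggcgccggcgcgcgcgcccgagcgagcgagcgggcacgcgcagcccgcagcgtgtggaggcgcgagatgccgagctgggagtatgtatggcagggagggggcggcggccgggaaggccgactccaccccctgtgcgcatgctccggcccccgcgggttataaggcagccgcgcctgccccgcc
The motifs were searched on both strands. AGGTCA, the core letters bound by nuclear receptors such as PPAR alpha, is in 14% of 32851 promoter windows of this length, TGATGNAA, of amino acid response elements, in 3.45%, and the E-box CACGTG in 6.02%. The Slc16a1 window held 1 E-box, at position -200 from the start site. The windows of Bdh1, Bdh2 and Oxct1 held none of these letters, which says nothing about factors that act elsewhere.

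All 8 arrays read as heart. The 6 cardiomyocyte markers Myh6, Tnnt2, Tnni3, Actc1, Ryr2 and Pln summed to log2 15.89 to 16.27 on every array. Across all genes the 10-week KO hearts stood apart on the first principal component (51.9% of the variance), and replicate 1 of the 10-week WT hearts on the second (24.3%), so values without that array are given beside the results. In bulk tissue, fewer cells of a type and less RNA per cell cannot be told apart. Levels below are log2 intensities after the authors' RMA, and a difference of 1 on that scale is 2-fold.

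Bdh1 rose with age in WT hearts and stood higher in KO than in WT hearts at both ages. On its brighter probe set it read 10.08 and 10.19 in the 10-week KO hearts, 9.42 and 9.38 in the 10-week WT hearts, 8.04 and 8.40 in the 4-week KO hearts and 6.80 and 6.53 in the 4-week WT hearts. No 2 groups overlapped. Arrays that do not overlap, with KO higher, were seen in 23.7% of all genes at 10 weeks and 19.4% at 4 weeks, and with 10 weeks higher in 31.2% of genes in WT and 32.2% in KO hearts. The 4-week KO hearts lay between the WT hearts of the 2 ages. The smallest gap between neighbouring groups was 0.66, between the lower 10-week KO heart and the higher 10-week WT heart. On the linear scale the intensities were 1085 and 1166 in 10-week KO, 687 and 666 in 10-week WT, 263 and 339 in 4-week KO, and 111 and 92.2 in 4-week WT.

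**Figure D1:**
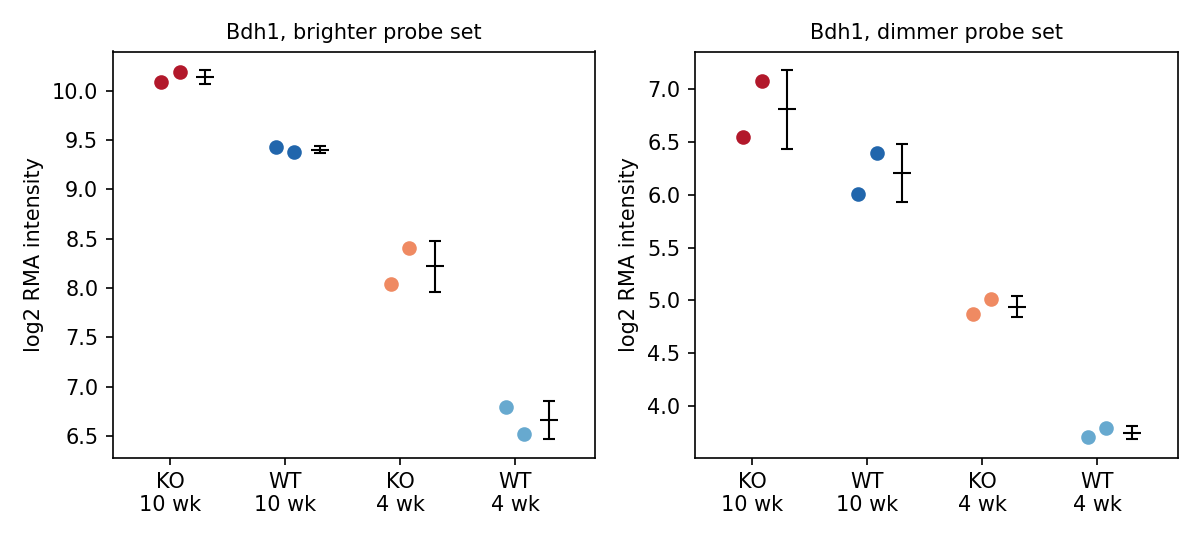
Log2 intensity of the brighter (left) and dimmer (right) Bdh1 probe set by group. Points are single hearts, and the black mark and bar give the mean and SD of the 2 hearts. In both panels the groups fall in the same order, with 10-week KO highest (10.08 and 10.19 on the left) and 4-week WT lowest (6.80 and 6.53).

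The age difference in WT hearts was not the comparison the gene was chosen on. It shares its arrays with the KO minus WT values that chose the gene. A choice that favours low 4-week WT values raises this difference, and one that favours low 10-week WT values lowers it. Its p and rank below are therefore not independent of the choice. Bdh1 averaged 9.40 ± 0.03 in 10-week WT and 6.66 ± 0.19 in 4-week WT hearts (SD, n = 2 each), a difference of 2.74 ± 0.16 (SE), or 6.68-fold. The limma adjusted p (Benjamini-Hochberg, 18193 genes) was 0.00032, the smallest of any gene in this comparison, and the difference ranked 2 of 18193 among rises. At an adjusted p under 0.05, 9 genes (0.0495%) were called higher at 10 weeks in WT hearts, of 0.115% called in either direction. That background depends on 1 array, since 21 genes were called in either direction with all arrays and 2946 without replicate 2 of the 10-week WT hearts. Bdh1 kept its call in each of 21 alternative settings, with a difference of 2.60 to 2.88 and an adjusted p of 0.00011 to 0.0248. Without replicate 1 of the 10-week WT hearts it was 2.72 (adjusted p = 0.0012). The dimmer probe set gave 2.45 ± 0.19 (adjusted p = 0.00297 over all probe sets).

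Bdh1 rose with age in KO hearts as well. It averaged 10.14 ± 0.07 in 10-week KO and 8.22 ± 0.26 in 4-week KO hearts (SD, n = 2 each). The difference was 1.91 ± 0.16 (SE), or 3.77-fold. The KO arrays entered the values that chose the set, so this difference is a description with no test. In KO hearts 622 genes, 3.42%, were called higher at 10 weeks, and nothing is read from Bdh1 against that share. The Bdh1 difference was 1.73 to 2.14 over 21 alternative settings.

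The KO minus WT values of Bdh1 are given without a test. The difference was 0.73 ± 0.16 (SE) at 10 weeks, 1.66-fold, and 1.56 ± 0.16 at 4 weeks, 2.94-fold. The dimmer probe set gave 0.60 ± 0.19 at 10 weeks and 1.19 ± 0.19 at 4 weeks. The 10-week minus 4-week change of the difference was -0.82 ± 0.22. Over all genes, 0.0275% were called higher in KO at 4 weeks, and 5.19% at 10 weeks (12.1% in either direction). Since these values chose the set, nothing is read from them against those shares. Both differences were positive under each alternative setting, from 0.67 to 0.88 at 10 weeks and from 1.37 to 1.74 at 4 weeks.

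Markers of atrial muscle and of liver differed between the arrays and are set beside Bdh1. The 4 atrial markers Myl7, Sln, Nppa and Myl4 summed to log2 14.53 and 14.51 in 10-week KO, 13.96 and 14.56 in 10-week WT, 13.69 and 14.78 in 4-week KO, and 12.62 and 13.18 in 4-week WT hearts. At 10 weeks 1 of the 4, Nppa, was called higher in KO and 1, Sln, lower. Myl7 (-1.56 ± 0.47, limma adjusted p = 0.0602) and Myl4 (-0.82 ± 0.42, 0.287) were also below WT without passing. The sum is led by Nppa, which averaged 14.26 in 10-week KO and 13.22 in 10-week WT hearts. The mean log2 level of the atrial genes Myl7, the atrial myosin light chain, and Sln, a regulator of the calcium pump, was 9.83 and 9.62 in 10-week KO, 11.27 and 12.09 in 10-week WT, 10.84 and 12.39 in 4-week KO, and 9.64 and 10.51 in 4-week WT hearts. This level, called the atrial level below, leaves out Nppa and Myl4. Its mean was 9.72 in 10-week KO and 11.68 in 10-week WT hearts, while the 4 markers summed to a mean of 14.52 and 14.26. A covariate of all 4 markers was not fitted. With the level of Myl7 and Sln as a covariate, an alternative chosen after seeing the data, the WT age difference of Bdh1 was 2.63 (adjusted p = 0.0248). The age difference of Bdh1 in KO hearts was 2.05. The KO minus WT difference was then 0.87 at 10 weeks and 1.45 at 4 weeks. The part of atrial tissue in the Bdh1 levels was not tested beyond these values.

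Bdh1 is also a liver gene. The 5 hepatocyte markers Alb, Apoa1, Apoa2, Ttr and Fgb summed to log2 7.81 and 8.43 in 10-week KO, 12.22 and 8.99 in 10-week WT, 8.14 and 12.15 in 4-week KO, and 10.04 and 11.55 in 4-week WT hearts. With the summed level as a covariate the age difference of Bdh1 in WT hearts was 2.75 (adjusted p = 0.000836). None of the 5 was called between KO and WT at either age. Of the 5 kidney markers, from another tissue that holds Bdh1 RNA, 1 was called lower in KO at 10 weeks, and their summed level was 7.14 and 7.09 in 10-week KO against 9.89 and 7.88 in 10-week WT hearts. The part of liver or kidney RNA in the Bdh1 levels was not tested beyond these values.

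Summed levels of other cell markers differed between the ages, and more of the markers were called in KO than in WT hearts. The 3 measured of 4 adipocyte markers, Adipoq, Cidec and Retn, summed to log2 9.95 and 8.86 in 10-week KO, 8.66 and 10.18 in 10-week WT, 7.58 and 8.48 in 4-week KO, and 7.43 and 8.50 in 4-week WT hearts, higher on each 10-week array than on any 4-week array. By limma 0 of the 3 were called between the ages in either genotype (adjusted p of 0.141 to 0.269). The 5 fibroblast markers, of which 1 was called lower at 10 weeks in WT hearts, summed to 12.28 and 12.73 in 10-week WT and 12.87 and 13.01 in 4-week WT hearts. In KO hearts the sum went the other way, at 13.48 and 13.44 at 10 weeks and 12.91 and 13.08 at 4 weeks. Dcn was called higher there (0.74, limma adjusted p = 0.0334). Lum was at 0.13, and Col1a1, Pdgfra and Col1a2 were at -0.40, -0.18 and -0.06, with none of these called. The 3 smooth muscle markers summed to 11.41 and 11.94 in 10-week WT and 12.45 and 12.59 in 4-week WT hearts, with 0 called. In KO hearts the 5 macrophage markers summed to 12.52 and 12.26 at 10 weeks and 11.69 and 11.89 at 4 weeks. By limma Cd68 (1.39, adjusted p = 0.00199), Lyz2 (0.61, 0.0158) and Cd14 (0.82, 0.0433) rose there, where 3.42% of all genes were called higher. C1qa and Csf1r did not pass (0.0979 and 0.117). Ryr2, Pln, Sln and Tie1, an endothelial marker, were called lower in KO hearts, and Nppa, Tagln of smooth muscle and Tnnt3 of skeletal muscle higher. The part of these cells in the age difference of Bdh1 was not tested.

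Of the enzymes that follow Bdh1, Acat1 passed the test in 10-week KO hearts and Oxct1 did not. Acat1, the thiolase that ends the pathway, fell 1.85-fold and Oxct1, the coenzyme A transferase before it, had a negative difference on each of its 4 probe sets without passing on the one used. Of the 4 partners of Bdh1, 1 was called lower and 0 higher at 10 weeks, against 6.89% of all genes called lower, and 0 were called by limma at 4 weeks, when 0% of all genes were called lower. An unadjusted p under 0.05 was reached by 3 of the 4 partners and 4291 genes at 10 weeks, and by 0 of the 4 partners and 679 genes at 4 weeks.

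Acat1 read 10.14 and 10.69 in 10-week KO hearts, 11.14 and 11.47 in 10-week WT hearts, 11.35 and 11.20 in 4-week KO hearts and 11.33 and 11.41 in 4-week WT hearts. Both 10-week KO hearts lay below the other 6, which lay close together. Arrays of KO hearts were all below those of WT hearts for 23.5% of all genes at 10 weeks. The KO minus WT difference at 10 weeks was -0.89 ± 0.19 (SE, n = 2 per group; limma adjusted p = 0.0144). The other probe sets gave -1.02 ± 0.16 (adjusted p = 0.00426 over all probe sets, of which 8.08% were called) and -0.44 ± 0.19 (adjusted p = 0.246). The call was lost without replicate 1 of the 10-week KO hearts (-0.62, adjusted p = 0.0937), with only the 10-week groups in the fit (adjusted p = 0.082) and with the atrial level as a covariate (-0.90, adjusted p = 0.212). Without replicate 1 of the 10-week WT hearts it was -1.05 (adjusted p = 0.0107).

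At 4 weeks Acat1 differed by -0.09 ± 0.19 between KO and WT hearts (95% interval -0.52 to 0.33, adjusted p = 0.999). The change of the difference between the ages was -0.79 ± 0.27 and did not pass (adjusted p = 0.196), so an effect of age on the KO difference is not shown. Within KO hearts Acat1 was lower at 10 than at 4 weeks, with a difference of -0.86 ± 0.19 (adjusted p = 0.0202), where 7.07% of genes were called lower, and it lost this call without replicate 1 of the 10-week KO (-0.59, adjusted p = 0.13), or replicate 1 (-0.79, 0.108) or 2 (-0.93, 0.101) of the 4-week KO hearts, and with the atrial covariate (0.362). In WT hearts the age difference was -0.07 ± 0.19.

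Oxct1 read 11.38 and 12.08 in 10-week KO hearts, 12.09 and 12.32 in 10-week WT hearts, 12.21 and 12.06 in 4-week KO hearts and 12.28 and 12.27 in 4-week WT hearts. One 10-week KO heart was low, and the other lay just under the lower WT heart of its age. The KO minus WT difference at 10 weeks was -0.47 ± 0.21 (SE) on the brightest probe set and did not pass (adjusted p = 0.206). The next brightest, whose name carries no suffix for probes that match several transcripts, gave -0.70 ± 0.18 and passed (adjusted p = 0.0396 over all probe sets). The other 2 gave -0.49 ± 0.28 and -0.28 ± 0.17. The difference on the brightest probe set was -0.12 without replicate 1 of the 10-week KO hearts (adjusted p = 0.806) and -0.82 without replicate 2 (adjusted p = 0.0236), and -0.59 without replicate 1 of the 10-week WT hearts (adjusted p = 0.182), and the call changes with the KO heart kept. At 4 weeks it was -0.14 ± 0.21 (adjusted p = 0.999), with a 95% interval of -0.61 to 0.32.

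**Figure D2:**
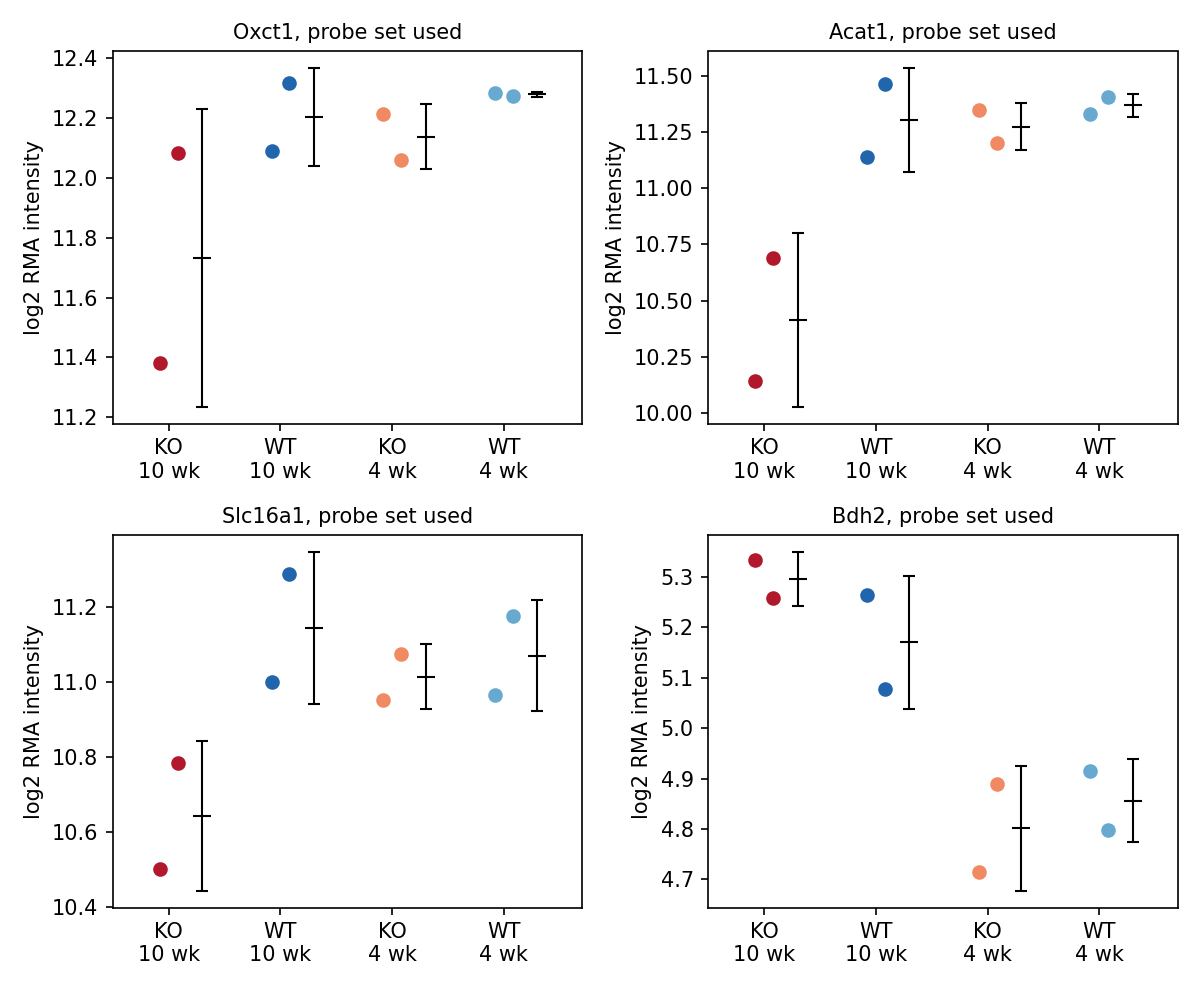
Log2 intensity of Oxct1, Acat1, Slc16a1 and Bdh2 by group, on the probe set used for each gene. Points are single hearts, black marks and bars the mean and SD of 2 hearts, and the vertical axes start above 0 and differ between panels. The 10-week KO hearts are lowest for Acat1 (10.14 and 10.69) and Slc16a1 (10.50 and 10.78), 1 of the 2 is low for Oxct1 (11.38), and Bdh2 is dim in every group (4.71 to 5.33).

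Slc16a1, the transporter MCT1 that brings ketone bodies and lactate across the membrane, read 10.50 and 10.78 in 10-week KO hearts, 11.00 and 11.29 in 10-week WT hearts, 10.95 and 11.08 in 4-week KO hearts and 10.97 and 11.18 in 4-week WT hearts. Both 10-week KO hearts lay below the other 6, and for 23.5% of all genes they lay below both WT hearts of that age. The difference at 10 weeks, -0.50 ± 0.16 (SE), did not pass (adjusted p = 0.0704). It passed without replicate 1 of the 10-week WT hearts (-0.64, adjusted p = 0.0382) and was -0.22 with the atrial level as a covariate (adjusted p = 0.686). At 4 weeks it was -0.06 ± 0.16 (95% interval -0.41 to 0.29). A dim second probe set, at 4.42 to 4.74 over the 8 arrays, gave -0.02 ± 0.14 at 10 weeks and 0.14 ± 0.14 at 4 weeks.

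Bdh2 shares the dehydrogenase name but not the pattern of Bdh1. Its 1 probe set was dim, at 5.33 and 5.26 in 10-week KO hearts, 5.26 and 5.08 in 10-week WT hearts, 4.71 and 4.89 in 4-week KO hearts and 4.91 and 4.80 in 4-week WT hearts. The KO and WT hearts overlapped at both ages, with a difference of 0.13 ± 0.13 at 10 weeks (adjusted p = 0.654, 95% interval -0.17 to 0.42) and -0.05 ± 0.13 at 4 weeks (adjusted p = 0.999, 95% interval -0.35 to 0.24). It was higher at 10 than at 4 weeks in KO hearts by 0.49 ± 0.13 (adjusted p = 0.0411), a call lost when the arrays were quantile normalized again (0.44, adjusted p = 0.0532) or centred on their medians (0.43, adjusted p = 0.068), without any 1 of 6 arrays, and with either covariate (0.442 and 0.0663), which makes 10 of 19 settings. In WT hearts the age difference of 0.31 ± 0.13 did not pass (adjusted p = 0.258).

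**Figure D3:**
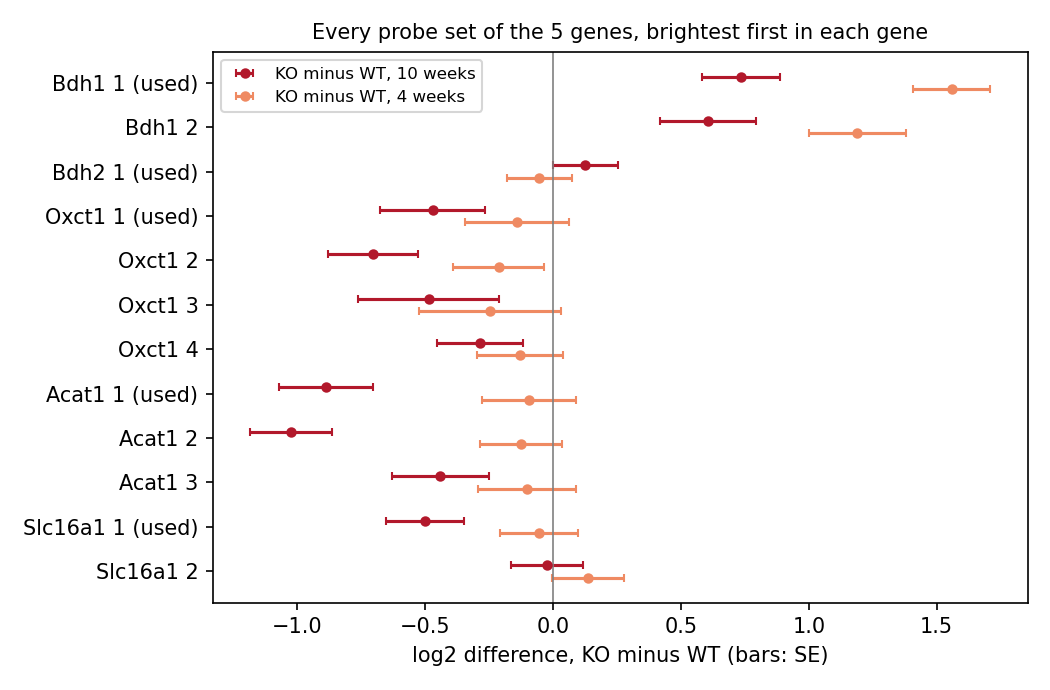
KO minus WT log2 difference of each of the 12 probe sets at 10 weeks (dark) and 4 weeks (light), with bars of 1 SE from the fit over all probe sets. Both Bdh1 probe sets lie right of 0 at both ages, and the 4 Oxct1 and 3 Acat1 probe sets lie left of 0, at -0.28 to -1.02 at 10 weeks and -0.09 to -0.25 at 4 weeks.

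In the age comparison, Bdh1 alone of the 5 genes was called between 10 and 4 weeks in WT hearts. The differences of the others in WT hearts were 0.31 for Bdh2, 0.07 for Slc16a1, -0.07 for Acat1 and -0.08 for Oxct1, with a median of 0.00 over these 4 and 0.05 over all genes. The 95% intervals in WT hearts were 0.02 to 0.61 for Bdh2 and -0.28 to 0.42 for Slc16a1. They were -0.49 to 0.36 for Acat1 and -0.54 to 0.39 for Oxct1. Each lay below the lower bound of 2.39 for Bdh1. The call and the bound of Bdh1 rest on WT arrays that also entered its choice, so they are not independent of that choice. In limma the KO minus WT difference changed between the ages for 0 of the 4 partners (adjusted p of 0.196 to 0.77, and 1 of 4, Acat1, at an unadjusted p under 0.05), where 2.08% of all genes were called and 2535 had an unadjusted p under 0.05.

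A wider list of 31 genes of ketone synthesis, use, transport, sensing and control included the 5, and 25 were measured. The others were not analysed here. At 10 weeks 4 of the 20 measured genes outside the 5 were called lower in KO and 0 higher, against 6.89% and 5.19% of all genes, and their median difference was 0.08, against 0.00 over all genes. At 4 weeks limma called 0 of the 20, where 0.0275% of all genes were called. An unadjusted p under 0.05 was reached by 2 of the 20 and by 679 of all 18193 genes.

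Of the genes called, Bsg, basigin, which carries MCT1 to the membrane, fell in 10-week KO hearts. It read 12.57 and 12.47 in 10-week KO and 13.04 and 13.12 in 10-week WT hearts, a difference of -0.56 ± 0.11 (SE, adjusted p = 0.0118). Both KO hearts were below both WT hearts, as for 23.5% of all genes at that age. At 4 weeks it read 12.78 and 12.79 in KO and 12.96 and 12.96 in WT hearts, a difference of -0.17 ± 0.11 that did not pass (adjusted p = 0.999). The 10-week call was lost without replicate 2 of the 10-week KO hearts (-0.52, adjusted p = 0.0729), with only the 10-week groups fitted (0.0813) and with the hepatocyte covariate (-0.58, 0.0596).

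The other transporters did not pass at 10 weeks. Slc16a3, the lactate exporter MCT4, was at 0.49 ± 0.15 (adjusted p = 0.0637), Slc16a7, MCT2, at -0.38 ± 0.18 (0.233), and Emb, embigin, another partner of these transporters, at 0.55 ± 0.22 (0.17).

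The other genes called, Sirt3, Mlycd and Ppara, act on ketone and fatty acid use and fell at 10 weeks. Sirt3, the mitochondrial deacetylase that acts on ketogenic and fatty acid enzymes, read 7.25 and 7.41 in 10-week KO and 8.12 and 8.26 in 10-week WT hearts (-0.87 ± 0.13, adjusted p = 0.00246). It kept its call without any single array. Mlycd, malonyl-CoA decarboxylase, which relieves the block on fatty acid entry, read 7.80 and 7.71 in KO and 8.43 and 8.38 in WT hearts of that age (-0.65 ± 0.13, adjusted p = 0.0102), and lost its call without replicate 2 of the 10-week KO hearts (-0.60, adjusted p = 0.0658) and with only the 10-week groups fitted (0.0532). Ppara, the nuclear receptor that drives fatty acid and ketone genes, read 7.61 and 7.69 in KO and 8.10 and 8.69 in WT hearts (-0.75 ± 0.19, adjusted p = 0.0308). Its call was lost without any 1 of 7 arrays, with a difference down to -0.46 without replicate 2 of the 10-week WT hearts (adjusted p = 0.0782), and also with only the 10-week groups fitted (0.112) and with the hepatocyte covariate (-0.87, 0.0656). Its 2 other probe sets gave -0.80 and -1.02 (adjusted p = 0.0102 and 0.00694 over all probe sets). Of the 7 measured genes of control on the list, 3 had a difference above 0 and 4 below. Those above 0 were Fgf21 (0.81 ± 0.24, limma adjusted p = 0.0633), Ppargc1a (0.59 ± 0.27, 0.226) and Cpt1a (0.49 ± 0.18, 0.137), and none passed. The other probe sets of Ppargc1a differed in sign, from -0.48 to 0.73. Foxa2 was at -0.0012 ± 0.13.

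Between 10 and 4 weeks in KO hearts 3 of the 20 were called lower and 2 higher, against 7.07% and 3.42% of all genes, 10.5% in all. Ppara was at -1.31 ± 0.19 (adjusted p = 0.00293), Sirt3 at -1.04 ± 0.13 (0.00138) and Mlycd at -0.65 ± 0.13 (0.0125). Emb was at 0.85 ± 0.22 (0.0414) and Slc16a3 at 0.59 ± 0.15 (0.0358). In WT hearts 0 of the 20 were called between the ages by limma, where 0.115% of all genes were called. An unadjusted p under 0.05 was reached by 5 of the 20 and by 3285 of all 18193 genes.

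Without replicate 1 of the 10-week WT hearts the 10-week differences were -0.60 for Bsg (adjusted p = 0.0206), -0.94 for Sirt3 (0.00371), -0.62 for Mlycd (0.0289) and -1.04 for Ppara (0.00302). With the atrial level, of Myl7 and Sln alone, as a covariate none of Acat1, Bsg, Sirt3, Mlycd and Ppara passed (adjusted p of 0.127 to 0.492). Their differences were -0.45 to -0.90, and 387 genes were called in place of 2199. In 10-week KO hearts 3 of the 6 cardiomyocyte markers were called lower and 0 higher, against 6.89% and 5.19% of all genes. Their summed levels were 15.89 and 16.09 in KO and 15.94 and 16.24 in WT hearts. Of the 5 fibroblast markers 4 were called higher, with summed levels of 13.48 and 13.44 in KO and 12.28 and 12.73 in WT hearts. Of the 5 macrophage markers 2 were called higher, at 12.52 and 12.26 in KO and 11.79 and 11.74 in WT hearts. The part of these cells in the lower Acat1, Bsg, Sirt3, Mlycd and Ppara values was not tested.

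**Figure D4:**
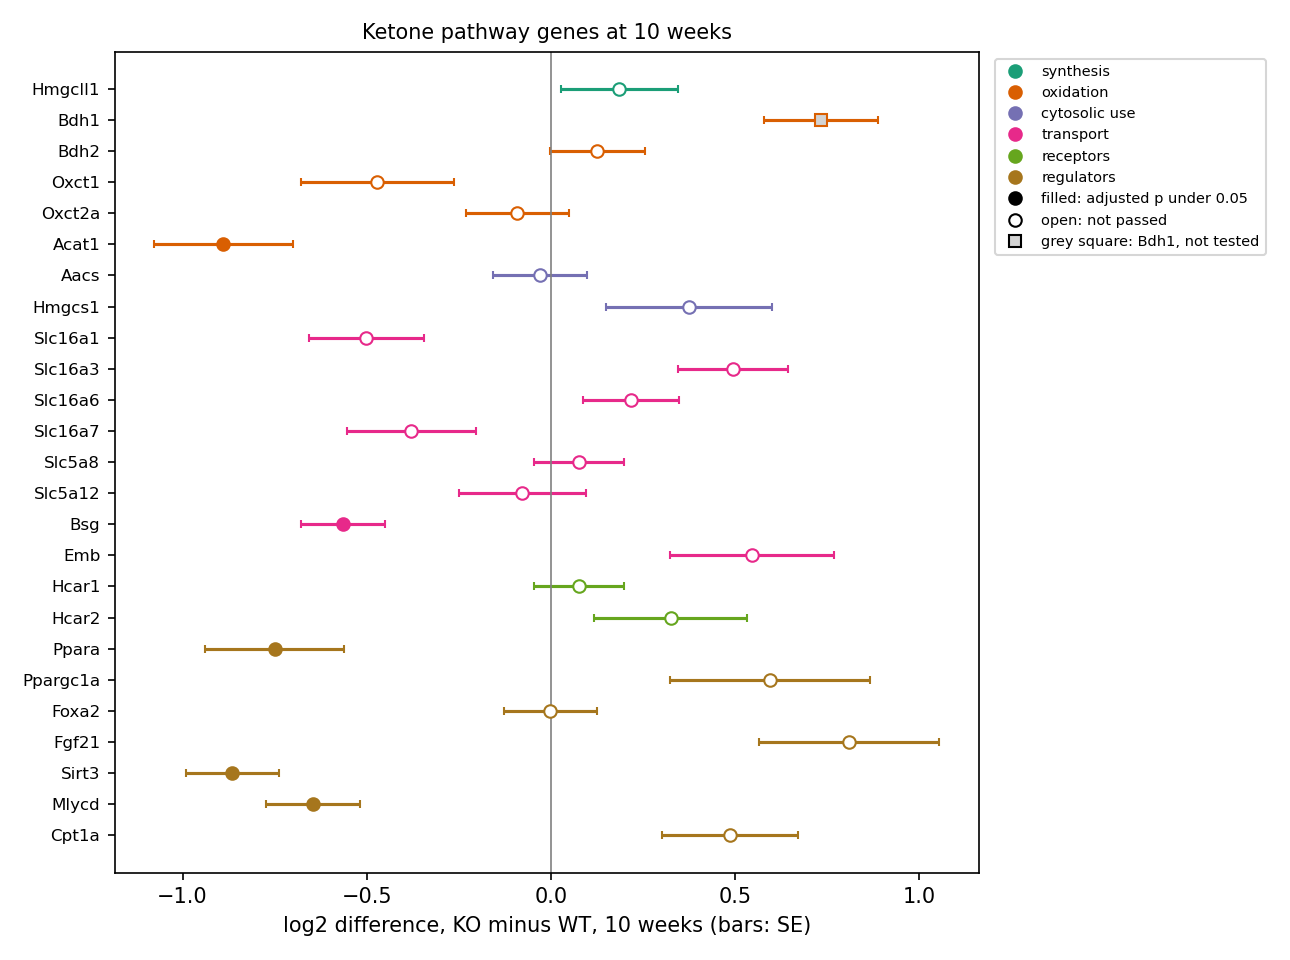
KO minus WT log2 difference at 10 weeks for the 25 measured genes of the wider ketone list, coloured by role, with bars of 1 SE. Filled circles passed the adjusted threshold: Acat1 (-0.89), Sirt3 (-0.87), Ppara (-0.75), Mlycd (-0.65) and Bsg (-0.56), each left of 0. Bdh1 (0.73), drawn as a square, is shown as a description because these values chose the set.

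The genes whose levels ran most like those of Bdh1 over the 8 arrays were looked up among 841 genes. These had a mean log2 of at least 6, an SD of at least 0.5 and a symbol that is not a clone-like name. The 5 highest Pearson correlations were 0.94 for Bmp10, a growth factor of atrial muscle, 0.93 for Cpxm2, of the carboxypeptidase family, 0.92 for Vsig4, a macrophage receptor, 0.92 for Gpx3, a secreted glutathione peroxidase, and 0.91 for Nppa, the atrial natriuretic peptide. Vsig4 read 8.45 and 7.97 in 10-week KO, 6.53 and 6.71 in 10-week WT, 5.73 and 6.21 in 4-week KO and 4.82 and 5.32 in 4-week WT hearts, the same order of groups as Bdh1. The 5 lowest were -0.95 for Nr1d2, a repressor of the circadian clock, -0.95 for Zkscan3, a zinc-finger protein, -0.95 for Frem2, a matrix protein, -0.95 for Rnf207, a ring-finger protein, and -0.94 for Casq1, a calsequestrin. Nr1d2 read 9.17 and 9.26 in 10-week KO, 9.74 and 9.81 in 10-week WT, 10.14 and 10.14 in 4-week KO and 10.56 and 10.44 in 4-week WT hearts, the reverse order. These correlations describe 8 arrays in 4 groups, share every array and carry no test.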

How the data were processed

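Hearts of 8 female mice were measured on 1 array each. Per the submitters' processing notes, the authors used GCOS 1.3 and RMA, with the RMA version, annotation and order not given in the sources used here. The deposited values were linear probe set intensities, with array medians of 34.3 to 37.4 and a lowest value of 4.90, and log2 was taken here. Of 45101 probe sets, 64 controls were left out, 34945 named 1 gene, 932 several and 9160 none, and Entrez IDs tied 34741 to a RefSeq gene table. Each of 18193 genes was read from its brightest probe set. No arrays were identical.

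All 8 arrays entered 1 limma 3.58.1 model (R 4.3.3) of 4 group means (eBayes, 4 residual degrees of freedom, 9.33 after moderation), checked on simulated data. Tests were two-sided with Benjamini-Hochberg adjustment over all genes, or over 45037 probe sets where single probe sets are given, and a gene was called at an adjusted p under 0.05. Separate mice were the replicates. Genes were named by rule: the 5 members, called genes of the ketone list with Bsg, and the 5 genes most and least like Bdh1. Other genes of that list, named with values although not called, and Vsig4 and Nr1d2 for values by array, were chosen with their values in view. The members and lists were chosen with earlier results of these data known. Alternatives covered probe set choice, dim genes, normalization, variance settings, array weights, the groups fitted, a replicate block and leaving out single arrays; the atrial and hepatocyte covariates were added after seeing the data. The knocked-out gene itself is not reported here.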

Additional observations from a re-analysis of the deposited data

How the results depend on the processing

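Bdh1 kept its sign in each comparison under each alternative, and its call between the ages in WT hearts under each. The KO minus WT counts of the 5 genes and of the list of 25 include Bdh1, whose values chose the set, so they show nothing about it. They were 2 and 6 at 10 weeks and 1 and 1 at 4 weeks, where the 1 is Bdh1 itself, and 1 of the 4 partners and 4 of the 20 list genes outside the 5 passed at 10 weeks and 0 of either at 4 weeks. Leaving out 1 array gave 0 to 3 of the 5 and 3 to 9 of the list at 10 weeks, and 0 to 1 of each at 4 weeks, with 0 without KO replicate 2 or either WT replicate of that age. For the age comparison 3 of the 5 passed in KO hearts, 1 to 3 with 1 array fewer, and 1 in WT hearts throughout. Counts in KO hearts include Bdh1, whose KO values entered the choice of the set. With only the 10-week groups fitted, 1 of the 5 genes and 2 of the list were called. With the atrial covariate, chosen after seeing the data, 0 of the 5 and 0 of the list were called at 10 and at 4 weeks, and 1 of the 5 between the ages in KO hearts. The covariate takes 1 of 4 residual degrees of freedom, and with it 0 of all genes were called at 4 weeks.

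Over all genes, 2199 were called at 10 weeks, between 1154 and 3244 with 1 array fewer, 959 with only those groups and 1042 with the hepatocyte covariate. At 4 weeks 5 were called, between 3 and 12 with 1 array fewer, 14 with array weights and 13 with only those groups. Between the ages 21 were called in WT hearts, between 4 and 2946 with 1 array fewer, and 1908 in KO hearts, between 527 and 3035.

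Signs turned only for uncalled values, most of them near 0. For the KO minus WT difference at 4 weeks, Slc16a1 was at 0.0404 with the mean of its probe sets, and leaving out 1 array gave -0.162 to 0.0491 for Slc16a1 and -0.142 to 0.0334 for Bdh2. For the age difference in WT hearts, leaving out 1 array gave -0.0698 to 0.217 for Slc16a1, -0.190 to 0.0394 for Oxct1 and -0.228 to 0.0969 for Acat1, and the atrial covariate gave -0.154 for Slc16a1 and 0.0102 for Oxct1. The change of the KO difference between ages was further from 0 in the main fit, at -0.33 for Oxct1 and -0.44 for Slc16a1. It was -0.682 to 0.0227 for Oxct1 with 1 array fewer and 0.0515 for Slc16a1 with the atrial covariate. The cause was not tested. Leaving out probe sets by suffix could give no value for Bsg, Sirt3 and Mlycd, and the filters on dim genes none for Bdh2.

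The labels number the mice 1 and 2 in each group but do not say that a number pairs them, and deviations of same-numbered mice correlated at 0.30 across genes for the 4-week groups and 0.23 for the 10-week groups. With the replicate number as a block the Slc16a1 difference at 10 weeks passed (-0.50, adjusted p = 0.0183), no other call of the 5 genes changed, and 107 genes were called between the ages in WT hearts.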
